A study of Mus musculus with 36 samples.

Results

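The host genes described here are those that gave rise to 10 or more different circular RNAs (circRNAs, here also called circles) in the hippocampus or the frontal cortex of the mouse. A circRNA counted as present when 2 or more replicates of a single time point, in either tissue, held reads of it. It was assigned to a gene of the GENCODE M21 annotation that holds both of its ends on the same strand. Of the 2644 host genes found in this way, 66 had 10 or more circles, and these are 2.50% of the host genes. Together they held 991 of the 6470 kept circles that lie inside a gene, or 15.3%, and 130403 circular reads, which are 18.6% of the circular reads of all kept circles. The genes were thus selected on measured detection, so their numbers of circles, the tissues these were found in and their read depth are given as a description, without a test.

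All animals were C57BL/6 mice kept on a cycle of light and dark, which the study's methods give as male C57BL6/N mice. Total RNA without ribosomal RNA was sequenced from the whole hippocampus or frontal cortex at zeitgeber times (hours after lights on) ZT1, ZT5 and ZT9 in the light phase and ZT13, ZT17 and ZT21 in the dark phase. Each of the 12 groups had 3 replicates, which gives 18 samples per tissue and 36 in all, and no sample carried a mutation or a treatment. The labels do not say whether the hippocampus and the cortex came from the same animals, and p-values measure the spread between these samples only.

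A circRNA forms when the spliceosome joins the end of an exon to the start of an exon that lies upstream of it, in place of the usual forward join. The closed ring has no free end for exonucleases to attack, and circRNAs are long-lived and abundant in neurons, where many come from genes of the synapse. One gene can yield several circles when different pairs of exons are joined backwards, and long introns on both sides of the joined exons, often with inverted repeats that pair with each other, favour the reaction. The circular reads counted here are those that cross such a head-to-tail junction. The start of a circle is the splice acceptor of its first exon and its end is the donor of its last exon, both in the direction of transcription.

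Circular reads per sample ranged from 6754 to 73252 in the hippocampus, with a median of 21923.5, and from 8107 to 34803 in the frontal cortex, with a median of 20301. A sample held between 192 and 775 of the 991 circles in the hippocampus and between 200 and 599 in the cortex. The hippocampus library ZT13 replicate 1 was the lowest and ZT1 replicate 3 the highest. The share of kept circular reads that fell on the 66 genes varied far less, from 16.9% to 21.5% in the hippocampus and from 17.9% to 20.7% in the cortex. As a check of the tissue labels, circles of the hippocampal marker genes Prox1 and Zbtb20 passed the test as higher in the hippocampus, while of the 3 tested cortical marker genes 1 was higher in the cortex and 1, Tshz2, in the hippocampus. No circle was kept for any of the 9 microglial or 7 endothelial marker genes, and the summed circles of the astrocyte and oligodendrocyte markers reached at most 10.7 and 4.26 normalised reads in any sample. In tissue samples, fewer cells of a type and less circRNA per cell cannot be told apart.

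Circles that use the same splice acceptor with different donors are the feature that recurs most in these genes, so junctions of 3 of the 10 genes with the most circles are shown first. Each line gives 30 bases across a head-to-tail junction, built from the exons of the GENCODE M21 transcripts on GRCm38. The last 15 bases of the last exon are in lower case, and the capitals mark the first 15 bases of the shared first exon.
Tasp1 exons 2 to 5: ttggagcactgagtgGTTGACTCCCTTTGC
Tasp1 exons 2 to 4: ctggtggaacttgagGTTGACTCCCTTTGC
Tasp1 exons 2 to 8: caatcaagcgcaaagGTTGACTCCCTTTGC
Tasp1 exons 2 to 6: cagaattcctccctgGTTGACTCCCTTTGC
Dgki exons 6 to 12: ggtggggatggaacgAACTTTGTGCGTCAC
Dgki exons 6 to 15: tccatgaatcccgagAACTTTGTGCGTCAC
Dgki exons 6 to 22: aactccgggaagcttAACTTTGTGCGTCAC
Dgki exons 6 to 20: gcctttgctcaatgaAACTTTGTGCGTCAC
Dennd1b exons 4 to 9: agcaaattaagcactGAAGTTCTGCAGAGC
Dennd1b exons 4 to 14: cagctctttaagcagGAAGTTCTGCAGAGC
Dennd1b exons 4 to 10: gctggactactgctgGAAGTTCTGCAGAGC
Dennd1b exons 4 to 19: cacaagctttcccagGAAGTTCTGCAGAGC

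In Tasp1, the protease that cleaves the histone methyltransferase MLL, 11 of 20 circles started at one acceptor, that of exon 2 of 14, and they held 82.5% of the gene's circular reads. The 4 junctions shown had 707, 668, 462 and 204 reads over all samples, in the order printed. The circle of exons 2 to 5 had 23.9% of the Tasp1 reads and that of exons 2 to 4 had 22.6%. In Dennd1b, an exchange factor for Rab GTPases, 7 of 19 circles and 50.2% of the reads used the acceptor of exon 4, with exons 4 to 9 in the lead at 33.2%. In Dgki, a diacylglycerol kinase, 8 of 36 circles started at exon 6, and as many at exon 9, which held 54.2% of the reads. The 4 junctions shown from exon 6 were minor, with 92 to 229 reads, and the leading circle joined exons 9 to 15 (chromosome 6, 37029763 to 37058028, minus strand) with 2051 reads and 45.0% of the gene's reads.

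**Figure D1:**
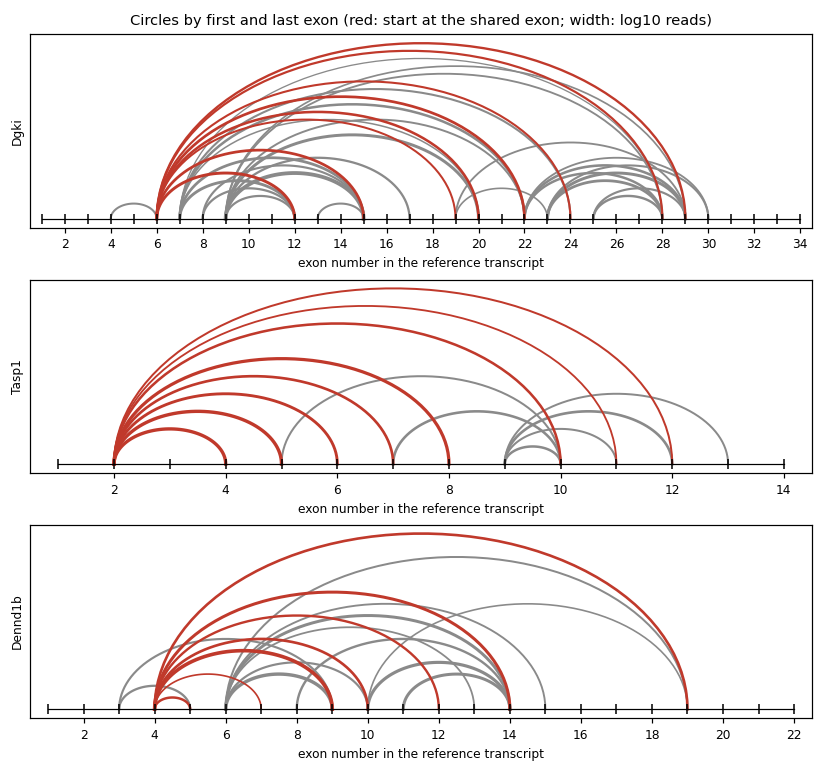
Circles of Dgki, Tasp1 and Dennd1b drawn as arcs from first to last exon along the exon numbers of the reference transcript (x axis). Red arcs start at the shared first exon of the junctions shown, other arcs are grey, and line width follows the log10 of the circular reads over 36 samples. Circles without both exon numbers in that transcript are not drawn, which leaves 14 of 20 in Tasp1 and 35 of 36 in Dgki. Arc height follows the number of exons spanned and has no unit of its own, and in Tasp1 most arcs start at exon 2.

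By number of circles, Snhg14 came first with 95, and among the genes after it were Dgki with 36, Nbea with 27, Rims2 with 22, Adgrb3 and Rere with 21 each, Tasp1 with 20, and Arhgap10 and Dennd1b with 19. Lrrc7, Ptk2 and Stag1 had 17 circles and Mllt10 had 16. The genes with 15 circles were 2010111I01Rik, Adgrl3, Anks1b, Atrnl1, Celf2, Magi2, Rfx3, Rims1 and Ubn2. Agtpbp1, Atp9b, Atxn1 and Mlip had 14, Ash1l, Cadps, Lrp1b, R3hdm1 and Zfp827 had 13, and Dtnb, Erc2, Pi4ka and Tfdp2 had 12. There were 11 circles in Dgkb, Dlg1, Fmn2, Kcnt2, Med12l, Nav3, Nell2, Rabep1, Stk39, Strbp, Ttc7b, Wdr7 and Zranb1. At the limit, with 10 circles, were 16 genes, among them Atxn10, Cacna1c, Cnksr2, Cntn5, Csmd1, Ctnnd2, Dennd1a, Dym, Fer, Gm26917, Rabgap1, Ryr2, Sntg1, Ttc3 and Zfp644. Just outside it, 18 genes had 9 circles, with a median of 776 reads against 830.5 for the genes with 10. All 10 circles of Zfp644 also lie inside another gene on the same strand, so their host is uncertain.

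Except for Snhg14 and Gm26917, which are noncoding, the 66 genes were protein-coding (64). They were long, with a median length of 296975 nt and 23 exons in the longest transcript. The median length was 123296 nt in the 1229 genes with 2 to 9 circles and 62432 nt in the 1349 genes with 1 circle. The median number of exons was 17 and 12, respectively. Read depth followed the same order, at a median of 1437 circular reads per gene in the 66 and 165 in genes with 2 to 9 circles, and since more reads make more circles detectable, the count of circles and the depth cannot be told apart here.

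By the function lists used, 29 of the 66 genes had a listed function and 37 had none, and the lists hold only some of the genes of each function. Over all host genes the share with 10 or more circles was 2.50%. The lists were chosen with earlier results of these data known, and no list was tested against this share. The greater length and read depth of the 66 genes were not taken into account. Of 41 genes with circles in the list of synaptic adhesion and associated proteins, 8 had 10 or more, among them Adgrb3, Lrrc7, Adgrl3, Lrp1b, Nell2, Cntn5 and Csmd1. Of 22 genes with circles in the presynaptic release list there were 4, namely Rims2, Rims1, Cadps and Erc2, which organise or prime vesicle release at the active zone. Of 48 such genes in the cytoskeleton and exchange factor list, 4 were among the 66 (Arhgap10, Dennd1b, Fmn2 and Dennd1a). There were 3 each of 16 genes with circles in the postsynaptic scaffold list (Magi2, Dlg1 and Cnksr2), of 30 in the ion channel list (Kcnt2, Cacna1c and Ryr2) and of 32 in the RNA-binding list (Celf2 and R3hdm1 among others). The chromatin list held Rere and Ash1l, of 44 genes with circles. There were 0 of 17 in the glutamate receptor list and 0 of 32 in the ubiquitin list, and the deubiquitinase Zranb1 was not on the latter list.

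**Figure D2:**
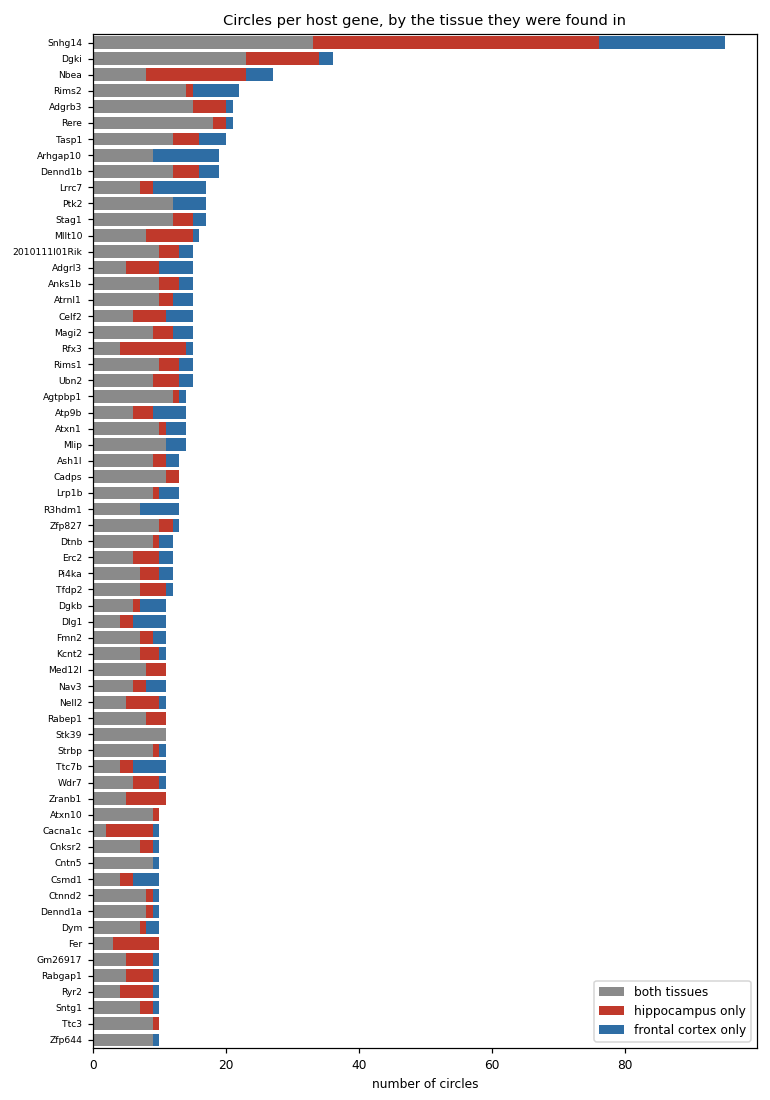
Number of circles (x axis) for 63 of the 66 host genes (y axis), split into circles found in both tissues (grey), in the hippocampus only (red) and in the frontal cortex only (blue). Snhg14 stands apart with 95 circles, and the next gene, Dgki, had 36.

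Shared starts and ends were the rule. Of the 991 circles, 907 (91.5%) shared their start or their end with another circle of the same gene. Sharing is mutual and the circles are grouped within genes, so no interval is given for this share. In genes with 2 to 9 circles the share was 73.3%, and a gene with more circles has more partners with which to share, so the difference is given as a description. The 991 circles used 513 different starts and 543 different ends. The most used edge of a gene, its hub, was a start in 50 genes and an end in 16. Where a start and an end were used equally often, as in Rere with 5 circles each, the start was taken. The other genes with such a tie were Adgrb3, Lrrc7, Mllt10, Adgrl3, Magi2, Dlg1, Kcnt2, Ttc7b, Gm26917, Ryr2 and Sntg1. The 50 genes therefore include ties, and between tied edges of one side the lower position was taken. A hub joined a median of 5 circles that held a median of 53.3% of the gene's circular reads. In 18 genes the hub was the start of exon 2.

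Hubs were strongest in Strbp, which encodes an RNA-binding protein, where 8 of 11 circles used the acceptor of exon 2 and held 97.3% of the reads. In Atxn1, the gene of ataxin-1, 9 of 14 circles with 92.2% of the reads started at exon 2. Atp9b, a phospholipid flippase, had 7 of 14 circles with 89.5%, and Stag1, a subunit of cohesin, had 11 of 17 with 71.7%, again from exon 2. Rims2, an active zone scaffold, was of the other kind, with a hub at an end: 9 of 22 circles closed at the donor of exon 22 and held 74.7% of its reads. Rims1, its paralog, had 5 of 15 circles with 73.0% of the reads on the donor of exon 32. At the other extreme, no edge of Ryr2, the ryanodine receptor calcium channel, joined more than 2 circles. Several of its edges tied at 2, among them the start of its leading circle, which held 50.6% of the reads.

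Both edges of 814 circles, or 82.1%, lay exactly at annotated exon boundaries. Without Snhg14 and Gm26917 the share was 91.3%. The 779 circles that could be numbered on one transcript held a median of 5 exons, 26 of them were of a single exon, and the median exonic length was 632 nt. Exon 2 was the first exon in 142 of the 779, or 18.2%. Of the 55 leading circles with exon numbers, 18 began at exon 2 and 0 were of a single exon. The intron before the leading circle was longer than the median intron of its transcript in 46 of 55 genes, and the intron after it in 51 of 55, at medians of 16851 nt and 26108 nt.

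Snhg14 does not follow this layout. It is a long noncoding transcript of the imprinted region on chromosome 7 that carries arrays of small nucleolar RNA (snoRNA) genes in its introns, and 208 annotated snoRNA genes lie in it on the same strand. Neither edge was at an annotated exon boundary in 83 of its 95 circles. A span of 147 nt recurred in 10 circles with 643 reads together. Of 69 gaps between neighbouring starts, 17 were 2509 to 2548 nt long, and of 43 between neighbouring ends, 8 were 2502 to 2545 nt long. Whether these circles lie in near-identical copies that share reads was not tested, so the number of distinct Snhg14 circles is uncertain. Its leading circle (59496310 to 59497801, minus strand) held 10.7% of the reads, the lowest share of the 66 genes.

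The leading circle of a gene, the one with the most reads, held a median of 33.4% of the gene's circular reads, between 10.7% in Snhg14 and 80.3% in Nell2. The median was 63.8% in genes with 2 to 9 circles, where fewer circles divide the reads. In 11 of the 66 genes the leading circle held 50% or more. The least dominated genes after Snhg14 were Mllt10, a partner of the histone methyltransferase DOT1L, at 14.5% (exons 5 to 9), and Rere, a transcriptional corepressor of the atrophin family, at 15.0% (exons 4 to 7). Ubn2, a histone chaperone subunit, followed at 19.2%, and Med12l, a Mediator subunit, at 21.9%. In Rere the second circle, exons 4 to 11, had 14.2% and thus nearly as much as the first.

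On reads pooled over samples, the most dominated genes were Nell2, a secreted glycoprotein of neurons, at 80.3% (exons 13 to 15), and Dtnb, beta-dystrobrevin of the dystrophin complex, at 73.0% (exons 5 to 8). Next came Gm26917 at 69.0%, Strbp at 65.4% and Cacna1c, the pore subunit of an L-type calcium channel, at 63.6% (exons 2 to 3). For Nell2 and Gm26917 the median share over single samples was 0% in both tissues, with the leading circle listed at 0 in 25 and 22 of the 36 samples. Among the genes with the most circles, Rims2 (exons 20 to 22) had 45.7% of its reads in 1 circle, Nbea (exons 2 to 10) had 26.8% and Arhgap10 (exons 9 to 12) had 26.3%. In Adgrb3, an adhesion receptor of the synapse, a pair of circles was nearly level, with 35.6% in exons 21 to 23 and 34.0% in exons 18 to 20, and these share no edge.

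Dominance was mostly the same in both tissues, with the same leading circle in 57 of 66 genes. The 9 exceptions were Mllt10, Ubn2, Med12l, Dgkb, Lrrc7, Arhgap10, R3hdm1, Rims1 and Adgrb3. Med12l differed most in its leading share, at 14.0% of its reads in the hippocampus and 31.6% in the cortex. Dgki held its leading circle at 36.6% to 56.0% of reads, median 45.9%, in the hippocampus samples and at 36.6% to 69.8%, median 44.7%, in the cortex samples, and these ranges overlap. Over samples with 10 or more reads of a gene, the leading circle was also first in the single sample in 1617 of 2187 cases, or 73.9%. In 8 genes it was first in every such sample.

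**Figure D3:**
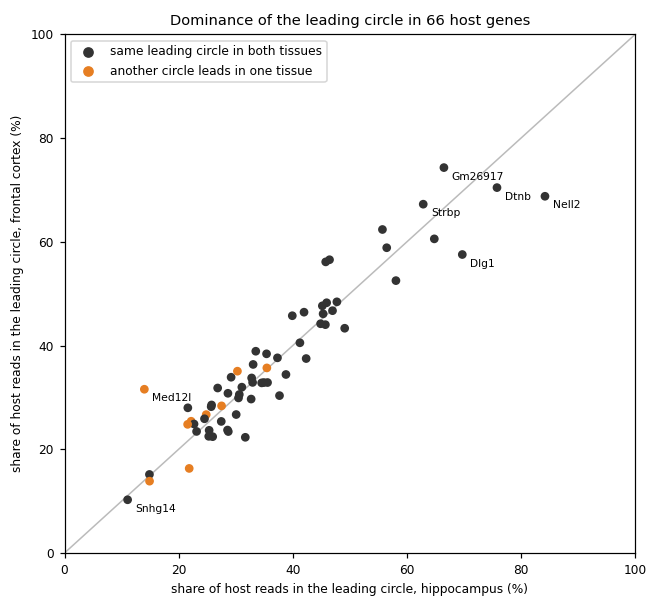
Share of a host gene's circular reads in its leading circle, in percent, in the hippocampus (x axis) and the frontal cortex (y axis), reads summed over 18 samples per tissue. Each point is a gene, orange where another circle leads in one tissue, and the points lie along the line of equal share from Snhg14 (11.1% and 10.3%) to Nell2 (84.2% and 68.8%).

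The leading circles of Nell2 and Gm26917 were either abundant or listed at 0, from sample to sample. The Nell2 circle (chromosome 15, 95296159 to 95346887, minus strand) had 244 to 446 reads in 11 samples and 0 in the other 25, with reads in 8 of 18 hippocampus and 3 of 18 cortex samples. The other Nell2 circles together had 9 to 35 reads in the samples with the leading circle and 10 to 78 in those without it, so the rest of the gene did not show the split. The Gm26917 circle (chromosome 17, 39844698 to 39844867) had 75 to 194 reads in 14 samples and 0 in 22, and both circles were present in 4 samples. No other of the 991 circles was listed at 0 in 6 or more samples and at 20 or more reads in each sample where it was found, a criterion chosen after these values were seen. The cause was not tested, and every sum that holds these circles inherits the split.

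**Figure D4:**
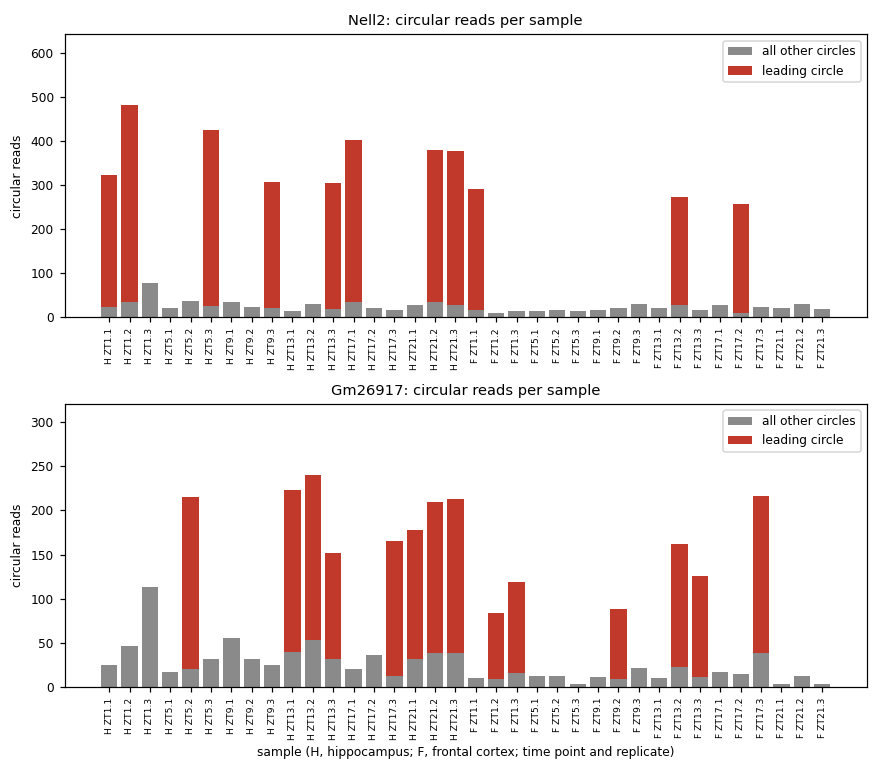
Circular reads per sample (y axis) of Nell2 and Gm26917 in 36 samples (x axis), with the leading circle in red and all other circles of the gene in grey. The red part is either large or missing, at 244 to 446 reads in 11 samples for Nell2 and 75 to 194 reads in 14 samples for Gm26917.

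By tissue, 586 of the 991 circles (59.1%) were found in both, 242 in the hippocampus alone and 163 in the frontal cortex alone. Circles found in one tissue had a median of 15 reads against 88.5 for those found in both, although the leading circle of Nell2, with 3544 reads, was found by this rule in the hippocampus alone, and 89 circles had reads in a single tissue and none in the other. More circles were found in the hippocampus in 37 genes, in the cortex in 19, and equal numbers in 10. Genes with 2 to 9 circles leaned the same way, with 56.0% of their circles found in both tissues. Another 1136 of their circles were found in the hippocampus alone and 681 in the cortex alone. The hippocampus had more circles in 536 of those genes, the cortex in 300, and 393 had equal numbers. The lean towards the hippocampus was thus not limited to genes with 10 or more circles. The part of read depth in it was not tested. Nbea, a regulator of membrane traffic at the synapse, had 15 circles found in the hippocampus alone and 4 in the cortex alone. Arhgap10, a GTPase-activating protein, had 0 and 10, and Rfx3, a transcription factor of ciliary genes, had 10 and 1.

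Whether a gene gave more circular reads in one tissue was tested on the sum of its circles (edgeR's quasi-likelihood test, Benjamini-Hochberg adjustment over all 726 host genes tested, threshold 0.05). All 66 genes passed the filter on low counts; the test called 11 higher in the hippocampus and 20 higher in the frontal cortex. Among all host genes tested, 16.7% were called higher in the hippocampus and 15.6% higher in the cortex. Of the 66 genes, 16.7% were thus called towards the hippocampus and 30.3% towards the cortex. Their median log2 difference, hippocampus minus cortex, was -0.14 against 0.01 over all genes tested. The 66 genes were selected on detection in either tissue, from these same reads. Some have 10 or more circles in 1 tissue only, as Arhgap10 (9 in the hippocampus, 19 in the cortex) and Rfx3 (14 and 5). The shares are therefore a description and no test of the 66 genes as a set. These genes also had more reads than the other tested genes, whose median was 373.5. Of the 10 neuron marker genes 6 had circles, and these summed to 35.7 to 61.9 normalised reads in the hippocampus samples and 35.1 to 76.4 in the cortex samples. Of the 2 neuron markers tested, Syt1 was higher in the cortex, and the median log2 difference was -0.39. No circle was kept for Snap25, Slc17a7, Gad1 or Gad2. The part of depth and of neuron content in these counts was not tested. Linear transcripts were not counted here, so more circle formation and higher expression of the gene cannot be told apart.

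Arhgap10 had the smallest p-value. It had 6.47 to 27.5 normalised reads, median 15.2, in the hippocampus samples and 61.2 to 113.0, median 76.5, in the cortex samples. Every cortex sample lay above every hippocampus sample. The log2 difference was -2.38 (SE 0.13, adjusted p = 2.67e-19). All 3 of its circles with enough reads for a test of their own were higher in the cortex, the leading one (exons 9 to 12) by a log2 difference of -2.48 (SE 0.24).

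Among the next genes towards the cortex, Strbp had 60.4 to 131.6 normalised reads, median 87.0, in the hippocampus and 90.3 to 161.0, median 138.6, in the cortex. Its ranges overlap, and the log2 difference was -0.63 (SE 0.08, adjusted p = 5.76e-08). Mlip, which encodes a protein that binds lamin, ran from 19.2 to 59.2, median 40.3, in the hippocampus and from 18.5 to 106.6, median 78.3, in the cortex, with a log2 difference of -0.97 (SE 0.13, adjusted p = 6.25e-08). Atrnl1, an attractin-like membrane protein, had medians of 69.5 and 107.0 and a log2 difference of -0.59 (SE 0.10, adjusted p = 1.3e-05). Dlg1, the synaptic scaffold SAP97, had medians of 16.7 and 31.7 and a log2 difference of -0.68 (SE 0.13, adjusted p = 6.4e-05). The ranges of all these overlap between the tissues.

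Towards the hippocampus, Rfx3 ranged from 11.7 to 56.4 normalised reads, median 40.5, in the hippocampus and from 0 to 25.6, median 15.4, in the cortex. Its log2 difference was 1.32 (SE 0.16, adjusted p = 1.98e-08), with overlapping ranges. Cacna1c had medians of 32.3 and 16.1 and a log2 difference of 1.07 (SE 0.18, adjusted p = 8.79e-06). Dennd1b had medians of 126.4 and 92.2, which is a smaller difference of 0.39 (SE 0.09, adjusted p = 0.000771). Zranb1, a deubiquitinase, had 13.2 to 28.9 normalised reads in the hippocampus and 0 to 34.7 in the cortex, and a log2 difference of 0.64 (SE 0.18, adjusted p = 0.00392), which did not pass with circles at exon boundaries only (adjusted p = 0.244).

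Nell2 was called higher in the hippocampus as well, at 18.1 to 394.6 normalised reads, median 37.5, against 14.3 to 302.0, median 22.2, in the cortex. The log2 difference was 1.77 (SE 0.48, adjusted p = 0.0036), and it rests on the all-or-none circle. Without its leading circle the log2 difference of Nell2 was 0.33 and did not pass (adjusted p = 0.092). Gm26917 had a log2 difference of 1.25 (SE 0.37, adjusted p = 0.00703), and passed without its leading circle (adjusted p = 2.17e-07). Neither edge of any of its 10 circles, which span 139 to 353 nt, lay at an annotated exon boundary. Whether the Gm26917 reads come from backward joins of exons was not tested.

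The other calls towards the cortex were Atxn1, Dtnb, Ttc7b, R3hdm1, Kcnt2, Cntn5, Zfp827, Dgkb, Rims2, Stk39, Rims1, Erc2, 2010111I01Rik, Nav3 and Ttc3. Of the 4 presynaptic genes, Rims1, Rims2 and Erc2 were higher in the cortex, and Cadps had a log2 difference of -0.02. Rims1 and Erc2 did not pass without their leading circle or without the filter on low counts. The other calls towards the hippocampus were Mllt10, Dgki, Rere, Nbea and Tfdp2. Snhg14, with the most circles, had medians of 78.6 normalised reads in the hippocampus and 89.96 in the cortex and did not pass (log2 difference -0.22, SE 0.14, adjusted p = 0.239).

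**Figure D5:**
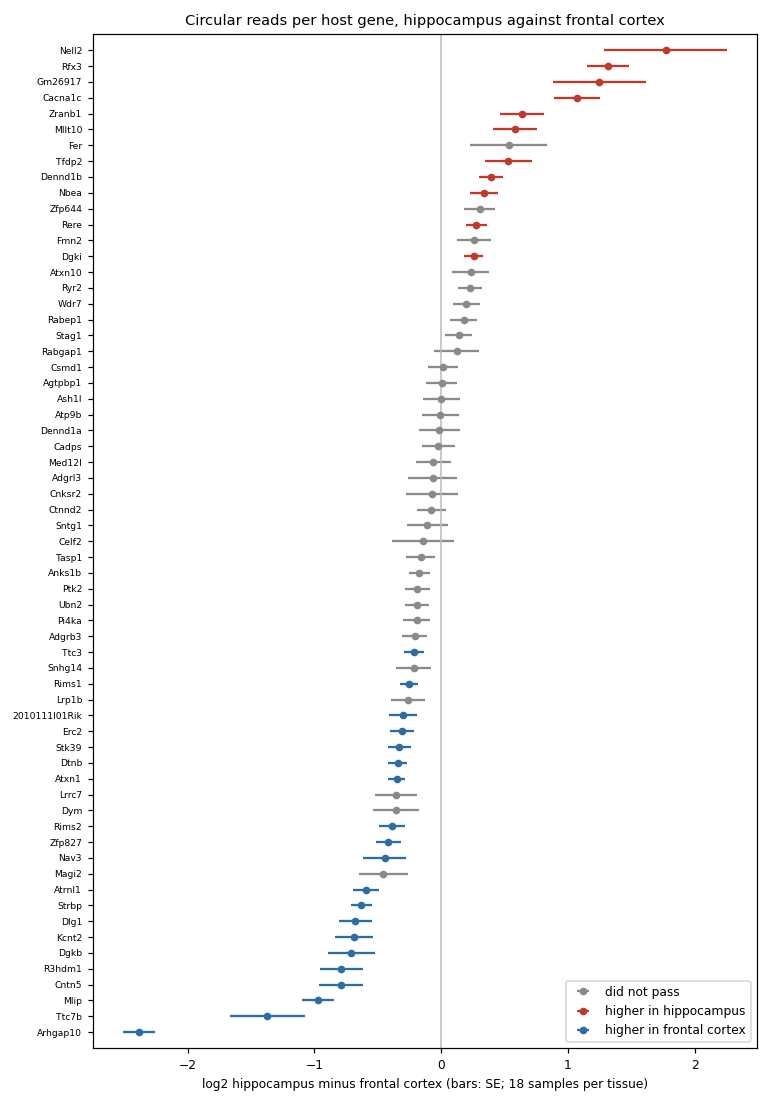
Log2 difference in normalised circular reads, hippocampus minus frontal cortex (x axis), of 63 of the 66 host genes (y axis), with bars for the SE and 18 samples per tissue. Red genes were higher in the hippocampus (11), blue genes higher in the frontal cortex (20) and grey genes did not pass, and Arhgap10 stands apart at -2.38.

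The wider lists were counted in the same test, where 16.7% of all 726 host genes were higher in the hippocampus and 15.6% in the cortex, and no list was tested against the other genes. Of the presynaptic list, 14 genes were tested, 2 were higher in the hippocampus and 4 in the cortex, with a median log2 difference of -0.28. The postsynaptic scaffold list had 1 and 3 of 9 tested, with a median of -0.29. Of the synaptic adhesion list, 6 and 4 of 23 tested genes passed, and of the ion channel list, 3 and 5 of 19. The chromatin list gave 5 and 2 of 24 with a median of 0.13, the cytoskeleton list 4 and 6 of 23, the RNA-binding list 2 and 2 of 15, the glutamate receptor list 1 and 1 of 6, the ubiquitin list 1 and 2 of 9, and the noncoding list 2 and 2 of 8.

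Single circles were tested as well. In all, 155 of the 991 circles, from 56 genes, had enough reads to be tested on their own, of which 14 passed as higher in the hippocampus and 31 as higher in the frontal cortex. Among all 710 circles tested, 16.1% were called higher in the hippocampus and 14.4% higher in the cortex. At least 1 circle passed in 30 genes, 2 or more in 12, and no gene had circles called in opposite directions. Mlip, Atrnl1 and Arhgap10 had 3 circles each that were higher in the cortex.

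Whether the tissues divide a gene's reads differently among its circles was tested as circle usage (edgeR's diffSpliceDGE over genes with 2 or more tested circles). Of the 66 genes, 41 could be tested and 7 passed: Dtnb, Wdr7, Mlip, Rere, Anks1b, Erc2 and Nell2. The background was 10.1% of 119 genes. These calls were sensitive to the settings, with 1 to 12 calls among the 66 genes under the alternatives. None of the 7 passed under all of them. Without the filter on low counts Mlip and Nell2 were the ones of the 7 that still passed, and Anks1b passed in 16 of 36 fits that leave out 1 sample.

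In Dtnb the circle of exons 5 to 8 had median shares of 75.2% and 69.9%, and the largest relative difference was in its partner from the same start (chromosome 12, 3617606 to 3686862). The partner had 0% to 21.1% of the Dtnb reads, median 15.1%, in the hippocampus and 13.9% to 41.5%, median 21.3%, in the cortex, with overlapping ranges. The test of usage gave an adjusted p of 0.00578, and the relative log2 difference of this circle was -0.37. In Wdr7, whose protein regulates the vacuolar proton pump, the circle from 63794225 to 63865506 on chromosome 18 had a median share of 16.5% in the hippocampus and 6.86% in the cortex, with a relative log2 difference of 1.06 (adjusted p of the gene 0.00975).

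In Mlip the circle from 77164765 to 77231029 on chromosome 9 had a median share of 5.56% in the hippocampus and 9.20% in the cortex (relative log2 difference -0.96, adjusted p of the gene 0.0107). In Rere the circle from 150439343 to 150510038 on chromosome 4 had median shares of 8.63% and 7.05% and a relative log2 difference of 0.54, while that from 150500003 to 150534945 had 5.47% and 8.63% and a difference of -0.48 (adjusted p of the gene 0.0228). In Anks1b, a scaffold of the postsynaptic density, the downstream circle (chromosome 10, 90895099 to 90923602) had median shares of 16.2% and 11.1% (relative log2 difference 0.41, adjusted p of the gene 0.0228). In Erc2 the circle from 28040343 to 28141381 on chromosome 14 had median shares of 16.1% and 11.5% (relative log2 difference 0.48, adjusted p of the gene 0.0242). The Nell2 call (adjusted p = 0.0267) includes the circle listed at 0 in 25 samples, and usage without that circle was not tested.

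The dark phase was compared with the light phase within each tissue, 9 samples against 9. In the hippocampus 65 of the 66 genes were tested and 1 passed, Gm26917, which was also the single call among all 621 host genes tested (0.161%). It had 20.2 to 612.7 normalised reads, median 183.3, in the dark and 21.4 to 203.8, median 33.8, in the light. These ranges overlap, and the log2 difference, dark minus light, was 1.80 (SE 0.37, adjusted p = 0.0256). None of its circles has an edge at an annotated exon boundary, and whether its reads come from circRNAs was not tested. Its all-or-none leading circle was present in 7 dark and 1 light samples of the hippocampus. DESeq2 did not call it (adjusted p = 0.139), and it passed in 9 of the 18 fits that leave out 1 sample. Without the hippocampus library ZT17 replicate 3 the log2 difference was 1.29 (adjusted p = 0.191).

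The next genes in the hippocampus were Atxn1, at a log2 difference of 0.24 (SE 0.10), and Dlg1, at 0.45 (SE 0.20), and neither passed (adjusted p = 0.836 and 0.95). In the frontal cortex 0 of 66 genes passed edgeR's test, and 0 of all 582 host genes tested (0%). At an unadjusted p under 0.05 the counts were 0 of the 66 and 22 of all, and DESeq2 also called 0 of the 66. The smallest p-values there belonged to Nbea (log2 difference -0.31, SE 0.17), Lrrc7 (0.32, SE 0.20) and Mllt10 (-0.40, SE 0.28), each with an adjusted p of 0.987. Whether the phase difference itself differed between the tissues was tested as an interaction, which 0 of 66 genes passed with edgeR and 0 with DESeq2, as did 0 of all 726 (0%), with 2 of the 66 and 41 of all at an unadjusted p under 0.05. The 2 were Atxn1 (interaction 0.36, SE 0.13, adjusted p = 0.737) and Gm26917 (1.91, SE 0.75, adjusted p = 0.737).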

How the data were processed

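The authors extracted total RNA, depleted ribosomal RNA and sequenced it, mapped the reads to GRCm38 with BWA and identified circRNAs with CIRI2 under default settings. They deposited, for every circRNA in each sample, raw whole-number counts of circular reads, and the smallest count above 0 is 2. In 1 further column the name matched no sample's labels, and it was not used. CircRNAs were kept, assigned to genes and selected as stated at the start of the report; where several genes held a circle, the gene with more edges at exon boundaries was taken, then the protein-coding and then the shorter one. The 66 genes and the gene lists were chosen with earlier results of these data known. Genes were named by number of circles, leading share and smallest p-values.

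Counts were summed per gene. Tests used edgeR 4.0.16 in R 4.3.3 (TMM normalization, filterByExpr with its defaults, Benjamini-Hochberg adjustment over all genes or circles tested). The model held the 12 groups of tissue and time point. Each phase test within a tissue held the 6 time points of that tissue alone (18 samples). SE is the log2 difference divided by the square root of F. Normalised reads are counts scaled to the mean total of kept circular reads. Because the scaling uses circular reads only, a rise or fall common to all circles would not be seen. DESeq2 1.42.0 was an alternative. Counts were also simulated at a dispersion of 0.1. The host gene tissue test (685 genes) found 94.0% of 200 genes changed 2-fold, with 4.57% of the calls false. The usage test (119 genes) found 80.0% of 100, with 0% false. The phase test in the hippocampus (623 genes) found 69.5% of 200, with 2.11% false. In the data far fewer genes passed, 12 of 119 for usage and 1 of 621 for phase in the hippocampus. The adjustment is milder when many genes change, so the shares found may be too high for the data. Python 3.11.15, numpy 2.4.6, pandas 2.3.3 and matplotlib 3.10.9 were used. Same-numbered replicates did not deviate together (correlations from -0.13 to 0.11 over 18 pairs). These are deviations from means of 3 samples at low counts, so they cannot show whether the numbers pair the samples. A few genes and their results are not reported here.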

Additional observations from a re-analysis of the deposited data

Results flagged for a closer look

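The number of circles of the 66 genes found in a sample stood apart in 2 of 12 comparisons of one sample with the rest of its group, where chance gives about 1 in 20. Hippocampus ZT13 replicate 1 had 192 circles, with 367 in the next sample of the dark phase. Hippocampus ZT1 replicate 3 had 775, with 552 in the next sample of the light phase. These are also the hippocampus libraries with the lowest (6754) and the highest (73252) total of circular reads. Without both libraries, a choice made after seeing the data, the test called 13 of the 66 genes higher in the hippocampus and 20 higher in the frontal cortex.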

How the results depend on the processing

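The number of genes with 10 or more circles depended on the detection rule and on depth. It was 14 when reads were required in each of the 3 replicates at one time point, 8 when all samples were thinned to the smallest total, 37 in the frontal cortex alone and 54 to 66 with 1 sample left out. The median leading share was 27.8% and the share of circles with a shared edge 93.3% under the rule of 3 replicates, and the latter was 86.3% after thinning. The counts of genes called between the tissues stayed within 1.5 times under every alternative (11 to 13 and 17 to 24 with 1 sample left out). Of the 31 genes called, 2010111I01Rik, Nav3, Tfdp2 and Ttc3 were lost with single samples left out and under other settings, Dgki, Erc2, Nell2 and Rims1 without their leading circle, Erc2 and Rims1 also without the filter, Zranb1 with circles at exon boundaries only, and Gm26917 with the replicate block (adjusted p = 0.0532). Single circles called higher in the hippocampus went from 14 to 9 with the replicate number as a block.

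Usage was the least stable, with 7 calls in the reported fit, 4 without the filter on low counts, 1 (Dtnb) with the replicate block, 12 without both outlying hippocampus libraries and 8 to 12 with 1 sample left out, where more genes were tested. Dtnb, Wdr7 and Erc2 passed in all 36 fits with 1 sample left out, Rere in 35 (not without frontal cortex ZT13 replicate 2), Mlip in 34 (not without hippocampus ZT13 replicate 3 or frontal cortex ZT1 replicate 1), Nell2 in 31 and Anks1b in 16. Nell2 was lost without hippocampus ZT5 replicate 3, ZT9 replicate 3, ZT13 replicate 3 or ZT17 replicate 1, or frontal cortex ZT17 replicate 1. The phase call of Gm26917 in the hippocampus gave 0 with DESeq2 and 0 or 1 with 1 sample left out. It was lost without any of ZT1 replicates 1 to 3, ZT5 replicate 3, ZT9 replicates 2 and 3, ZT13 replicate 1, ZT17 replicate 3 and ZT21 replicate 2. The interaction had 1 call without the filter. The causes were not tested. Whether the replicate numbers pair the samples is not known, and the block moved no other count by over 1.5 times. Samples of low depth limit which weak circles can be found.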
